A study of Homo sapiens with 8 samples.

Results

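Junctional adhesion molecules and the plaque proteins beneath them were followed as 9 genes: F11R, JAM2, JAM3 and ESAM for the adhesion molecules, TJP1, CGN and CGNL1 for the plaque scaffolds, and PARD3 and PARD6A for the PAR polarity proteins. The members were taken by name, as the rows of the deposited table whose gene name equals one of these symbols, and that rule uses no measured value. All 9 were found among the 30386 genes of the table, and all 9 passed the filter on low counts, which left 15330 genes to test. RNA sequencing of poly-A RNA compared 4 samples of endothelial cells (iEC) with 4 samples of retinal endothelial cells (iREC). Both came from WTC-TJP1, a human induced pluripotent stem cell line, and both were analysed at passage 1 with no treatment named in the labels. The iREC were matched to the iEC by their line of origin. Both groups carry the letters C, D, E and F, and values per sample are given in that order. The labels do not say what change at TJP1 the line name refers to, and both groups carry it. A single line limits what the groups can stand for. Nothing states that the letters are separate differentiations, so p-values measure only the spread between these samples, which may be technical.

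Endothelial cells are joined by tight junctions and adherens junctions that lie close together along the cell border. Junctional adhesion molecules are single-pass proteins with immunoglobulin domains. They bind each other across neighbouring cells. The short tails of the proteins of F11R, JAM2 and JAM3 hold a PDZ-binding motif that docks on ZO-1 (TJP1), PAR-3 (PARD3) and afadin (AFDN). On the inner face of the membrane, ZO-1 ties claudins and occludin to actin, and cingulin (CGN) and paracingulin (CGNL1) link ZO-1 to myosin and to regulators of small GTPases. PAR-3 and PAR-6, with atypical protein kinase C, help place the junction and set cell polarity. In the retina, tight junctions of this kind between endothelial cells form the inner blood-retinal barrier.

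The adhesion molecules that passed the test and the plaque scaffolds that did so lay in opposite directions. The cingulins were higher in iREC, CGN 17.6-fold and CGNL1 6.22-fold. The adhesion molecules JAM2 and ESAM were lower in iREC, 3.75-fold and 1.92-fold. F11R, PARD3 and PARD6A overlapped between the groups, as did JAM3 and TJP1, which missed the threshold. Of the 9 members, 4 passed edgeR's quasi-likelihood test at an adjusted p under 0.05, against 25.0% of all genes tested. The 2 that rose stand beside 13.2% of all tested genes called higher, and the 2 that fell beside 11.7% called lower. The same 4 members were those whose samples did not overlap between groups, against 29.1% of all tested genes. The log2 fold change was above 0 for 4 of the 9 members, and the median over all tested genes was 0.02.

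**Figure D1:**
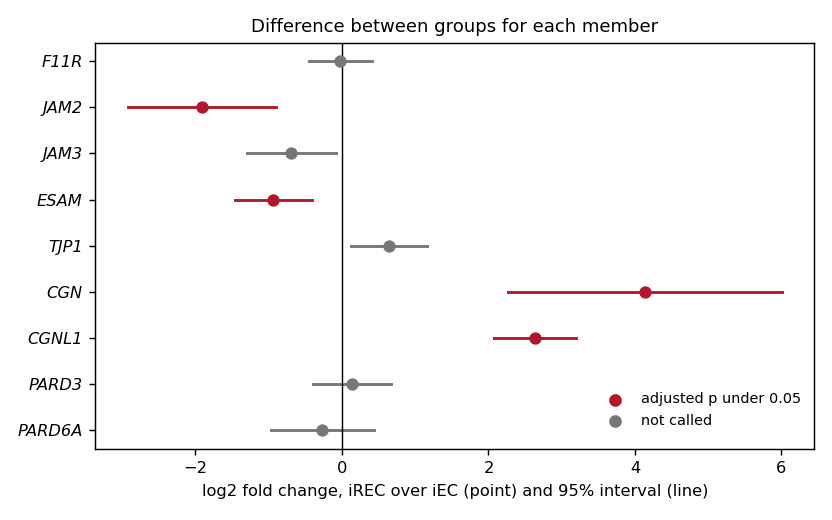
Log2 fold change of each of the 9 genes, iREC over iEC, from edgeR (point) with its 95% interval (line), red where the adjusted p was under 0.05. CGN (4.14) and CGNL1 (2.64) lie to the right of 0, JAM2 (-1.91) and ESAM (-0.94) to the left, and the other 5 are grey.

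The 4 iEC libraries held 14877502 to 16971865 counts and the 4 iREC libraries 13739364 to 15987839. A floor of 3 counts equalled 0.178 to 0.215 CPM (counts scaled to library size, after TMM). The floor covers counting error only, and the intervals of fold changes are edgeR's and include the spread between samples. Correlations of log2 CPM between samples of a group lay between 0.946 and 0.98 in iEC and between 0.929 and 0.98 in iREC. The labelled endothelial identity was checked against 10 endothelial markers. All 10 were tested, and their summed level was 6810 to 8660 CPM in iEC and 4086 to 9165 CPM in iREC. The lowest sum belonged to iREC F. This library also had the highest summed level of 10 mural and mesenchymal markers, 4458 CPM against 614 to 1241 CPM in the other iREC and 233 to 488 CPM in iEC. Its 11 epithelial markers summed to 4868 CPM, against 309 to 1079 CPM in the other iREC and 422 to 1227 CPM in iEC. The part of these markers in the results on the members was not tested. Without iREC F, 4 members were called, beside 4214 of the 15783 genes tested in that setting. This count does not test the part of these markers either. In bulk samples, fewer cells of a type and less RNA per cell cannot be told apart.

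Levels are compared between genes only as FPKM, which the authors scaled by gene length. ESAM stood first in iEC at 146 ± 17.7 FPKM (SD, n = 4), followed by JAM3 at 79.6 ± 23.8, F11R at 25.9 ± 4.25, TJP1 at 11.8 ± 3.92 and CGNL1 at 7.23 ± 1.84. PARD3 followed at 3.05 ± 0.366, PARD6A at 1.68 ± 0.488, JAM2 at 0.336 ± 0.167 and CGN at 0.133 ± 0.165. Among neighbours in that order, only the ranges of TJP1 and CGNL1 and those of JAM2 and CGN overlapped. In iREC the order began with ESAM at 75.5 ± 23.7 FPKM, JAM3 at 48.8 ± 16.1, CGNL1 at 44.6 ± 10.6, F11R at 25.2 ± 5.93 and TJP1 at 18.3 ± 2.76, and the ranges of each of these and the next overlapped. PARD3 (3.33 ± 1.11) and CGN (2.37 ± 1.02) came next with overlapping ranges, then PARD6A (1.39 ± 0.215) and JAM2 (0.0871 ± 0.0236). CGNL1 thus stood below F11R in iEC, with no overlap. In iREC the mean of CGNL1 lay within the range of JAM3 and above that of F11R, which only iREC F of the CGNL1 samples reached. F11R shares 36.6% of its exon bases with a same-strand gene, so its FPKM and its place in this order are uncertain. Among all tested genes ranked by FPKM, CGNL1 stood at percentile 63.4 in iEC and 94.6 in iREC, and CGN at 4.7 and 36.3. ESAM stood at percentile 98.6 in iEC and 97.1 in iREC.

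**Figure D2:**
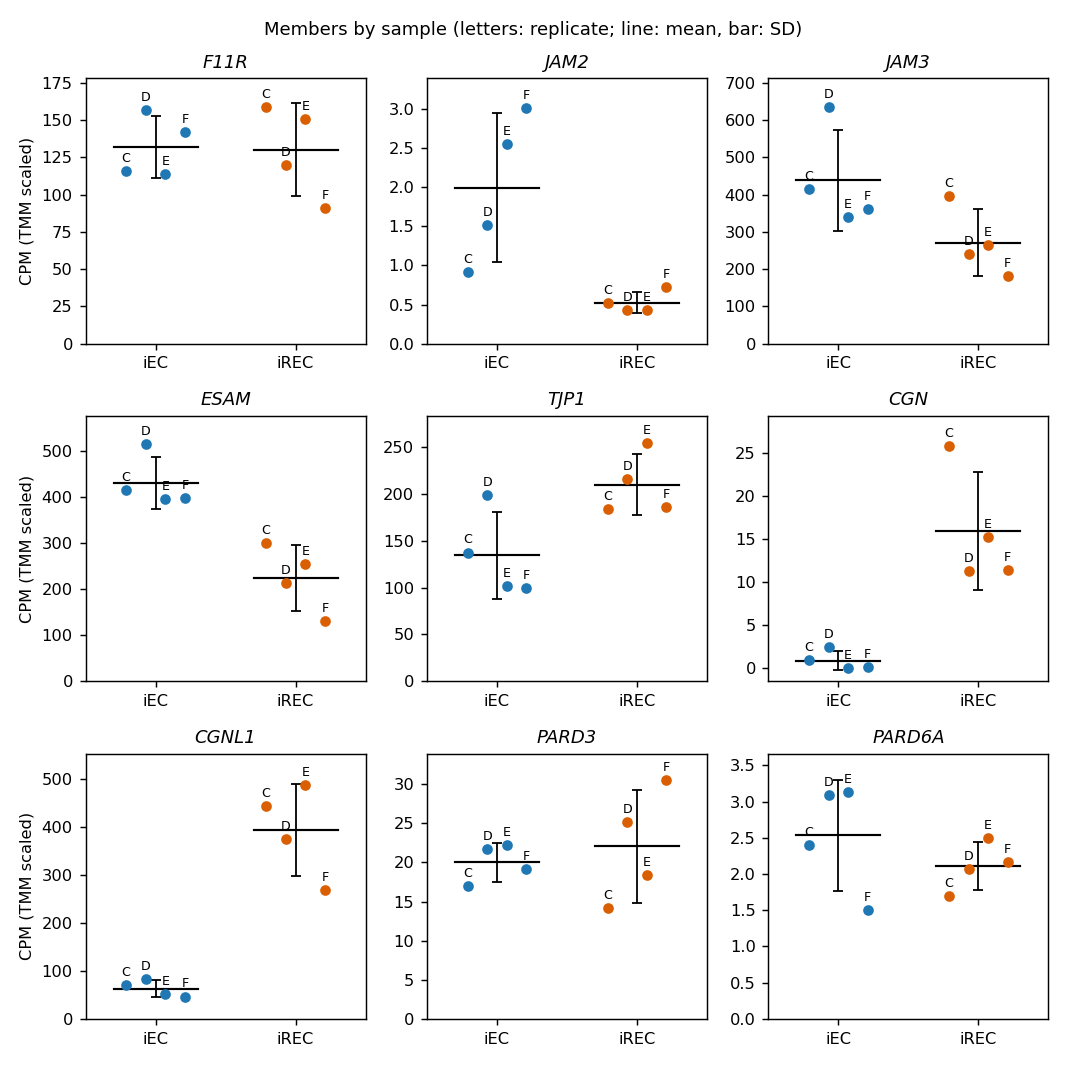
CPM on TMM-scaled libraries of the 9 genes in each sample, with the letter of the sample, the mean (line) and the SD (bar) for iEC (blue) and iREC (orange), each gene on its own linear axis. The groups are apart for JAM2, ESAM, CGN and CGNL1 and overlap for F11R, JAM3, TJP1, PARD3 and PARD6A.

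CGN encodes cingulin, a coiled-coil protein that binds ZO-1 and is best known from epithelial tight junctions. The gene (ENSG00000143375) lies on the plus strand of chromosome 1 from 151510510 to 151538692 on GRCh38, with 23 exons after merging overlapping ones. Its level was 0.91, 2.47, 0.0592 and 0.143 CPM in iEC C to F, and 25.8, 11.3, 15.3 and 11.4 CPM in iREC C to F. The iEC values rest on 14, 39, 1 and 2 counts, so iEC E and F were at or under the floor of 3 counts and only iEC C and D were above it. The iREC values rest on 158 to 395 counts. Every iREC sample was above every iEC sample, and iREC C was the highest. CGN rose by a log2 fold change of 4.14 ± 0.83 (SE; 95% interval 2.27 to 6.0; edgeR adjusted p 0.00637). The interval is the widest among the 9 genes. Leaving out iEC D moved the log2 fold change to 5.40, and leaving out iEC E to 3.75.

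CGNL1 encodes paracingulin, a relative of cingulin found at both tight and adherens junctions. The gene (ENSG00000128849) lies on the plus strand of chromosome 15 from 57375967 to 57550727, with 28 merged exons. Its level was 70.1, 84.0, 52.4 and 46.6 CPM in iEC C to F, and 443, 375, 488 and 268 CPM in iREC C to F. The lowest iREC sample, F, was well above the highest iEC sample, D. CGNL1 rose by a log2 fold change of 2.64 ± 0.25 (SE; 95% interval 2.08 to 3.19; edgeR adjusted p 0.000128), and no alternative moved it outside 2.51 to 2.80. In the authors' deposited table its log2 fold change was 2.63 with an adjusted p of 1.22e-22. A lincRNA on the opposite strand, AC025271.2, shares 1.19% of the exon bases of CGNL1 and was at 0 CPM in iEC and 0.412 CPM in iREC.

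Because the cingulins were the members that rose, the DNA just upstream of their RefSeq start sites is shown for both. Both windows lie inside the gene spans given above, which begin further upstream than these RefSeq starts. Each window is the 250 bases before the start on the GRCh38.p14 assembly, on the plus strand, read 5′ to 3′. Capitals mark GC boxes (GGGCGG on either strand, overlapping matches counted) and, in CGN, a match to AACCNGTT, the motif of grainyhead-like factors, which drive epithelial genes.
CGN, chr1:151511137-151511386: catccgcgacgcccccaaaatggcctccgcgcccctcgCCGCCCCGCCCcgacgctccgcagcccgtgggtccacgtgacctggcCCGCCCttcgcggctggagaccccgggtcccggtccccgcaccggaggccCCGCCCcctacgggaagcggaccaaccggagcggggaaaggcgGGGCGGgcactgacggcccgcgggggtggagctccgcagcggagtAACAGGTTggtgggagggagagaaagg
CGNL1, chr15:57376255-57376504: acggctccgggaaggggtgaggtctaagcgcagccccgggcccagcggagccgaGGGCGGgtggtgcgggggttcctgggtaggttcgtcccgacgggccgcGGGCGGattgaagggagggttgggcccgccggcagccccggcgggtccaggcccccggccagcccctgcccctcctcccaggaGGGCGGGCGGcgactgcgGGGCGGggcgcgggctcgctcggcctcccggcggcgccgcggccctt

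The windows of CGN and CGNL1 each hold 5 GC boxes. Of the 35116 RefSeq windows of this length, 42.6% hold at least 1, and the share that holds 5 was not computed. Their GC content was 76% and 80.4%, against a median of 58% over all windows, and their ratio of observed to expected CpG was 0.887 and 0.83, against a median of 0.558. The AACCNGTT match of CGN lies on the minus strand with its first base 27 bases before the start, and 1.49% of all windows hold such a match. CGNL1 has no match to it. Further motifs were searched on both strands and had no match in either window. They were the ETS core with its flank, CCGGAA, which 14.5% of all windows hold, and the E-box of SNAI and ZEB factors, CACCTG, which 17.5% hold. The TEAD motif GGAATG is in 11.9% of all windows, and the TATA box in the form TATAAA in 10.7%. These are letter matches and not binding sites. The windows of the other 2 members matched, TJP1 and PARD6A, held no AACCNGTT. GRHL2, a grainyhead-like factor named here after its values were seen, was at 0, 0, 0.118 and 0 CPM in iEC C to F and at 1.57, 1.36, 2.26 and 0.393 CPM in iREC C to F, and was below the filter.

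Since cingulin is also an epithelial gene, the epithelial markers were read beside it. Of 11 listed, 6 were tested and 1 was called, CLDN7, which was lower in iREC (40.6 ± 10.9 CPM in iEC against 4.01 ± 0.818). The other 5 tested had a log2 fold change above 0, with a median of 0.75 over the 6, and none of these passed the test. KRT8, a keratin of simple epithelia, was at 304 ± 206 CPM in iEC against 980 ± 1380 CPM (edgeR adjusted p 0.234), with 3025 CPM in iREC F. EPCAM, which defines most epithelia, was at 1.46 ± 0.456 CPM in iEC against 1.53 ± 1.26 CPM. CDH1, chosen after its values were seen, was at 0, 5.14, 1.16 and 81.6 CPM in iREC C to F. The highest CGN level was in iREC C, the sample with the lowest epithelial sum (309 CPM) and no CDH1 count. The library with the highest epithelial sum, iREC F, had the third highest CGN level and the lowest CGNL1 level of its group. In iREC F, KRT8 alone gave 3025 of the 4868 CPM of that sum. GRHL2, also on the list, was at 1.57, 1.36, 2.26 and 0.393 CPM in iREC C to F. CGN was at 25.8, 11.3, 15.3 and 11.4 CPM in the same samples, so the 2 genes did not share an order. GRHL2 was highest in iREC E and CGN in iREC C, and GRHL2 was lowest in iREC F and CGN in iREC D. The part of epithelial markers in the level of CGN was not tested.

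TJP1 encodes ZO-1, the central scaffold of the tight junction plaque. The gene (ENSG00000104067) lies on the minus strand of chromosome 15 from 29699367 to 29968865, with 33 merged exons. Its level was 137, 199, 102 and 99.0 CPM in iEC C to F, and 183, 216, 254 and 186 CPM in iREC C to F. The iREC samples were higher apart from an overlap made by iEC D, which lay above iREC C and F. The log2 fold change was 0.64 ± 0.23 (SE; 95% interval 0.13 to 1.16; edgeR adjusted p 0.0701). Without iEC D it was 0.89 and passed the test (adjusted p 0.00826), and DESeq2 called it with all samples (adjusted p 0.0356), over a range of 0.00826 to 0.167 across the alternatives. In the authors' deposited table the adjusted p was 0.0546.

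ESAM encodes an adhesion molecule of endothelial cells and platelets, whose tail binds the scaffold MAGI1. The gene (ENSG00000149564) lies on the minus strand of chromosome 11 from 124752583 to 124762290, with 7 merged exons. Its level was 414, 514, 395 and 398 CPM in iEC C to F, and 300, 213, 254 and 132 CPM in iREC C to F. All iREC samples lay below all iEC samples, and iREC F was the lowest. ESAM fell by 0.94 ± 0.23 on the log2 scale (SE; 95% interval -1.46 to -0.42; edgeR adjusted p 0.0168). Without iREC D the adjusted p was 0.0528, the highest of the alternatives, which ran from 0.00123.

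JAM2 encodes JAM-B, the partner of JAM-C in trans. The gene (ENSG00000154721) lies on the plus strand of chromosome 21 from 25639272 to 25717562, with 12 merged exons. Its level was low in both groups, at 0.91, 1.52, 2.55 and 3.01 CPM in iEC C to F, and at 0.523, 0.428, 0.427 and 0.721 CPM in iREC C to F. These values rest on 14, 24, 43 and 42 counts in iEC and 8, 6, 7 and 11 counts in iREC, all above the floor. The groups did not overlap, and iEC E and F were higher than iEC C and D, the reverse of the order seen for CGN. JAM2 fell by 1.91 ± 0.45 on the log2 scale (SE; 95% interval -2.92 to -0.89; edgeR adjusted p 0.0136). ATP5PF, a mitochondrial gene on the opposite strand at 62.4 CPM (iEC) and 59.5 CPM (iREC), shares 58 exon bases with JAM2. Whether counting used the strand is not given in the sources used here, so part of so low a count is uncertain.

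JAM3 encodes JAM-C, which binds JAM-B and sits at endothelial junctions. The gene (ENSG00000166086) lies on the plus strand of chromosome 11 from 134068925 to 134152001, with 12 merged exons. Its level was 414, 636, 341 and 361 CPM in iEC C to F, and 395, 242, 265 and 182 CPM in iREC C to F. Only iREC C reached into the iEC range. The log2 fold change was -0.69 ± 0.27 (SE; 95% interval -1.30 to -0.086; edgeR adjusted p 0.0916). Without iREC C it was -0.94 and passed the test (adjusted p 0.0287), and the other alternatives reached up to 0.202. The opposite-strand gene NCAPD3, at 52.9 CPM (iEC) and 68.4 CPM (iREC), shares 8.53% of the exon bases of JAM3.

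F11R encodes JAM-A, which binds itself across the junction and signals to Rap through afadin. The gene (ENSG00000158769) lies on the minus strand of chromosome 1 from 160995211 to 161021348, with 10 merged exons. Its level was 116, 157, 114 and 142 CPM in iEC C to F, and 159, 120, 151 and 90.9 CPM in iREC C to F. The groups covered nearly the same range, and iREC F was the lowest sample. The log2 fold change was -0.02 ± 0.19 (SE; edgeR adjusted p 0.947), and its 95% interval of -0.45 to 0.41 bounds the difference. A protein-coding gene on the same strand, AL591806.3, shares 36.6% of the exon bases of F11R and was at 2.07 CPM (iEC) and 1.81 CPM (iREC), so reads in the shared exons may have been split or dropped.

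PARD3 encodes PAR-3, the polarity scaffold that binds the tails of JAM-A, JAM-B and JAM-C. The gene (ENSG00000148498) lies on the minus strand of chromosome 10 from 34109560 to 34815325, with 28 merged exons. Its level was 17.0, 21.7, 22.2 and 19.1 CPM in iEC C to F, and 14.1, 25.1, 18.4 and 30.6 CPM in iREC C to F. The iREC samples were spread on both sides of the iEC samples, with iREC F the highest. The log2 fold change was 0.14 ± 0.24 (SE; 95% interval -0.39 to 0.67; edgeR adjusted p 0.702).

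PARD6A encodes a PAR-6 protein, the adaptor between PAR-3, CDC42 and atypical protein kinase C. The gene (ENSG00000102981) lies on the plus strand of chromosome 16 from 67660946 to 67662778, with 3 merged exons. Its level was 2.41, 3.10, 3.14 and 1.5 CPM in iEC C to F, and 1.70, 2.07, 2.50 and 2.16 CPM in iREC C to F. The iREC samples all lay between the lowest and the highest iEC sample. The log2 fold change was -0.27 ± 0.31 (SE; 95% interval -0.97 to 0.44; edgeR adjusted p 0.571).

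The adhesion molecules together summed to 235, 317, 218 and 237 FPKM in iEC C to F, and to 203, 138, 162 and 95.9 FPKM in iREC C to F. Each iREC sum was below each iEC sum. Within that sum ESAM held 58.4% ± 2.91 (SD, n = 4) in iEC and 50.2% ± 2.58 in iREC, and JAM3 held 31.1% ± 3.57 and 32.6% ± 2.66. F11R held 10.3% ± 1.24 in iEC and 17.1% ± 1.5 in iREC, where its lowest share (15.2%) was above its highest in iEC (12.1%). JAM2 held 0.139% and 0.0658%. F11R thus held a larger share of the family in every iREC sample than in any iEC sample, while the levels of F11R itself overlapped. The size of these shares is uncertain, since 36.6% of the exon bases of F11R are shared with a same-strand gene.

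Ratios between related genes within a sample do not depend on library scaling, and 6 were compared by a two-sided exact permutation test over 70 assignments, in which 0.0286 is the smallest p possible, with adjustment over the 6. The ratio of F11R to JAM3 was 0.301, 0.265, 0.361 and 0.424 in iEC C to F and 0.434, 0.535, 0.611 and 0.539 in iREC C to F. It was 1.58-fold higher in iREC with no overlap (exact p 0.0286, adjusted 0.0857). The ratio thus did not pass the adjusted threshold.

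The ratios of 4 other pairs overlapped between the groups. CGNL1 to CGN differed by -0.97 on the log2 scale (exact p 0.0857, adjusted 0.171), and this sign turns with a larger pseudocount because CGN is near 0 in iEC. The FPKM of CGNL1 was above that of CGN in all 8 samples, with a ratio of 12.8 to 24 in iREC. JAM2 to JAM3 differed by -0.42 (exact p 0.371), also with a sign that depends on the pseudocount. PARD3 to PARD3B differed by -0.48 (exact p 0.2, adjusted 0.24), and PARD6A to PARD6B by -1.07 (exact p 0.2, adjusted 0.24). PARD3B, a paralogue of PARD3, was at 16.1 ± 5.71 CPM in iEC and 23.6 ± 3.47 CPM in iREC (SD, n = 4; edgeR adjusted p 0.142). PARD6B was below the filter, at 0.47 ± 0.379 CPM in iEC against 1.55 ± 1.73 CPM in iREC, where iREC F held 4.13 CPM.

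Because the endothelial junction genes PECAM1 and CDH5 (VE-cadherin) were themselves lower in iREC, 5 members were also set against CDH5, a step chosen after the data were seen and given as a description with no test. PECAM1 fell by 1.57 ± 0.20 on the log2 scale (SE; edgeR adjusted p 0.000632), with 1927 to 2605 CPM over the iEC samples and 493 to 855 CPM over the iREC samples. CDH5, at 1351 ± 229 CPM in iEC against 799 ± 204 CPM, fell by 0.76 ± 0.21 (edgeR adjusted p 0.0298), a call lost in 5 of 16 alternatives. Of the 10 endothelial markers, 5 had a log2 fold change above 0, and the median over the 10 was -0.28. The ratios below therefore depend on the choice of CDH5, and ratios to other markers were not computed. Per CDH5, ESAM differed by -0.21 on the log2 scale and JAM3 by 0.08, both with overlap between the groups. F11R per CDH5 was 0.127, 0.135, 0.109 and 0.104 in iEC C to F and 0.195, 0.183, 0.200 and 0.212 in iREC C to F. It was 1.67-fold higher in iREC without overlap, and since the level of F11R itself differed by -0.02 on the log2 scale, this ratio restates the fall of CDH5. TJP1 per CDH5 was 2.77-fold higher and CGNL1 per CDH5 10.6-fold higher, both without overlap. In iREC F, the library with the lowest endothelial sum, CDH5 was at 517 CPM against 790 to 983 CPM in the other iREC, and F11R per CDH5 in that sample (0.212) was the highest of the group.

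**Figure D3:**
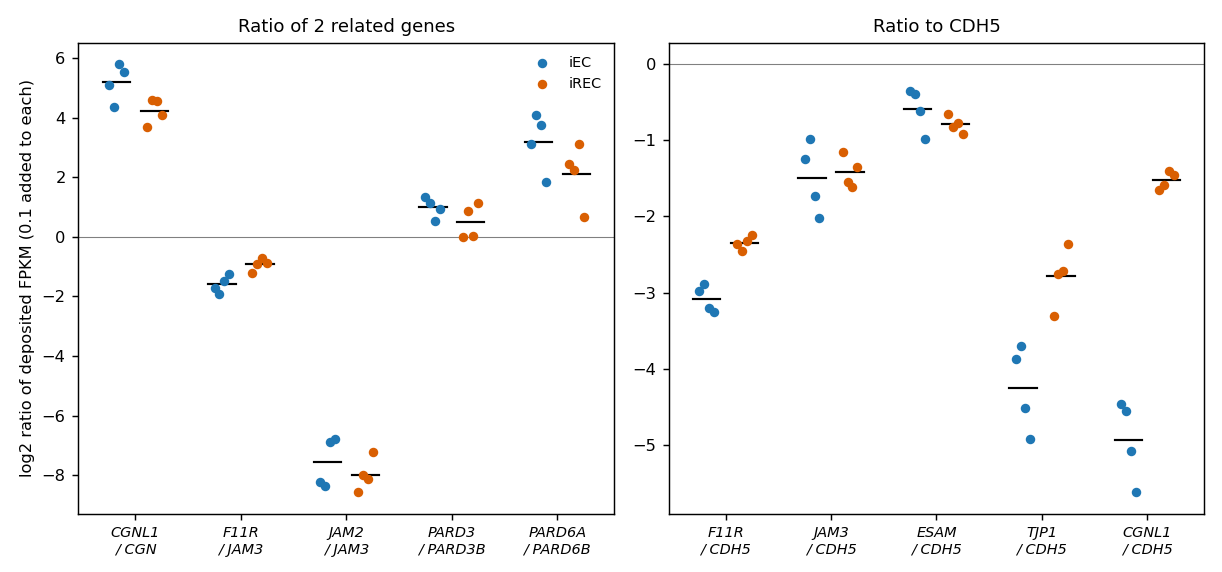
Log2 ratio of deposited FPKM (0.1 added to each gene) within each sample, for 5 pairs of related genes (left) and for 5 members over CDH5 (right), with points for the samples, blue for iEC and orange for iREC, and lines for group means. F11R over JAM3 is apart between groups, as are F11R, TJP1 and CGNL1 over CDH5, while ESAM and JAM3 over CDH5 overlap.

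Other genes of the pathway were read from 5 lists that hold 53 genes, of which 44 were tested. Of these, 9 were higher and 8 were lower in iREC, 17 called in all, and 18 did not overlap between groups, beside 25.0% called and 29.1% not overlapping among all tested genes. The number called fell to 11 without iREC D and reached 18 at most when single samples were left out.

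The partners through which the adhesion molecules signal split in both directions. Of 9 tested, 2 were higher and 2 were lower, with a median log2 fold change of -0.37 against 0.02 over all genes. ITGAV, the alpha-v integrin with which JAM-A associates, was at 117, 109, 105 and 138 CPM in iEC C to F and at 429, 362, 406 and 403 CPM in iREC C to F. It rose 3.42-fold (log2 fold change 1.77 ± 0.12, SE; edgeR adjusted p 3.78e-05), and the groups were far apart. AFDN, the afadin scaffold that binds the tail of JAM-A, rose 2.02-fold, from 210 ± 52.4 to 423 ± 71.8 CPM (edgeR adjusted p 0.00582). RAPGEF1, an exchange factor for Rap, fell from 193 ± 9.38 to 137 ± 8.69 CPM (adjusted p 0.00628). The exchange factors RAPGEF2 and RAPGEF6 of the same list did not pass the test (edgeR adjusted p 0.0739 and 0.808). RAP1B, a small GTPase of the Rap family, fell from 285 ± 14.5 to 220 ± 2.27 CPM (adjusted p 0.02), a call lost in 4 of 16 alternatives. ITGB3, the integrin partner of ITGAV, did not pass the test (81.2 ± 37.6 CPM in iEC against 52.8 ± 20 CPM, adjusted p 0.266).

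Among other scaffolds and partners of ZO-1, 12 of 13 were tested, 2 were higher and 2 were lower, with a median log2 fold change of -0.07. MAGI1, the scaffold that ESAM binds, was at 51.2, 44.4, 23.7 and 22.7 CPM in iEC C to F and at 76.7, 89.2, 104 and 99.2 CPM in iREC C to F. It rose 2.6-fold without overlap (edgeR adjusted p 0.00605), while ESAM fell. PATJ, a many-PDZ scaffold of the Crumbs complex, rose 4.67-fold from a low level, 1.28 ± 0.507 to 6.03 ± 2.20 CPM (adjusted p 0.00325). GJA1, the gap junction protein connexin 43 that binds ZO-1, fell 2.66-fold, from 878 ± 291 to 329 ± 172 CPM (adjusted p 0.021). CTNNA1, alpha-catenin, fell 1.39-fold, from 770 ± 75.2 to 554 ± 28.8 CPM (adjusted p 0.0163). Without iREC D the adjusted p was 0.0663 for GJA1 and 0.0616 for CTNNA1, the highest of the alternatives, whose lowest were 0.000869 and 0.000716.

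Among the partners of cingulin and paracingulin, 11 of 12 were tested, 3 were higher and 2 were lower, with a median log2 fold change of 0.04. TIAM1, the exchange factor for Rac that paracingulin recruits, was at 32.4, 35.5, 18.2 and 14.0 CPM in iEC C to F and at 76.4, 119, 167 and 47.5 CPM in iREC C to F. It rose 4.1-fold without overlap (edgeR adjusted p 0.00779). ARHGEF2, an exchange factor that cingulin holds at the junction, was at 160 to 164 CPM in iEC and 88.7 to 114 CPM in iREC, and fell 1.54-fold (adjusted p 0.00329). TIAM1 and ARHGEF2 thus went opposite ways. RHOA fell from 646 ± 65.7 to 489 ± 47.3 CPM (adjusted p 0.0433), a call lost in 9 of 16 alternatives.

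The nonmuscle myosin gene MYH10 rose 3.73-fold, from 298 ± 85.3 to 1110 ± 387 CPM (edgeR adjusted p 0.00162), while its relative MYH9 was at 2937 ± 747 and 3014 ± 871 CPM (adjusted p 0.927). PLEKHA7, which meets paracingulin at adherens junctions, was at 0.190 to 0.769 CPM in iEC and at 1.44, 7.28, 3.36 and 44.6 CPM in iREC C to F. Its log2 fold change was 4.90 ± 1.15 (SE; edgeR adjusted p 0.013) and 3.08 without iREC F, and limma-voom did not call it (adjusted p 0.103, the highest of the alternatives, whose lowest was 9.73e-05). That sample holds most of the mean, and its epithelial and mural marker sums were the highest of the 8.

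Of 11 other PAR and Crumbs genes, 8 were tested, 2 were higher and none was lower, with a median log2 fold change of 0.27. PARD6G, another PAR-6 gene, rose 2.2-fold, from 4.4 ± 1.42 to 9.67 ± 2.51 CPM (edgeR adjusted p 0.0198). Per sample its iREC values of 8.64, 7.42, 9.4 and 13.2 CPM in C, D, E and F all lay above the iEC values of 2.97 to 6.3 CPM. Its call was lost without iEC C (adjusted p 0.0533) or iEC E (0.0645), over alternatives that began at 0.00184. CRB2, a Crumbs protein, was at 0.131, 8.78, 2.32 and 102 CPM in iREC C to F, so that 1 library carried its rise. Its log2 fold change was 5.85 (adjusted p 0.0373) and 2.91 without iREC F (adjusted p 0.103), and its call was lost in 6 of 15 alternatives, with adjusted p from 0.00205 to 0.348. The kinase PRKCI (46.9 ± 6.94 and 46.1 ± 11.7 CPM) and the Crumbs adaptor PALS1 (53.4 ± 3.43 and 53.4 ± 8.03 CPM) differed by less than their spread. CDC42 was counted at 1.12 CPM (iEC) and 1.03 CPM (iREC) and is uncertain, since it shares 57.1% of its exon bases with the same-strand gene AL031281.2.

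**Figure D4:**
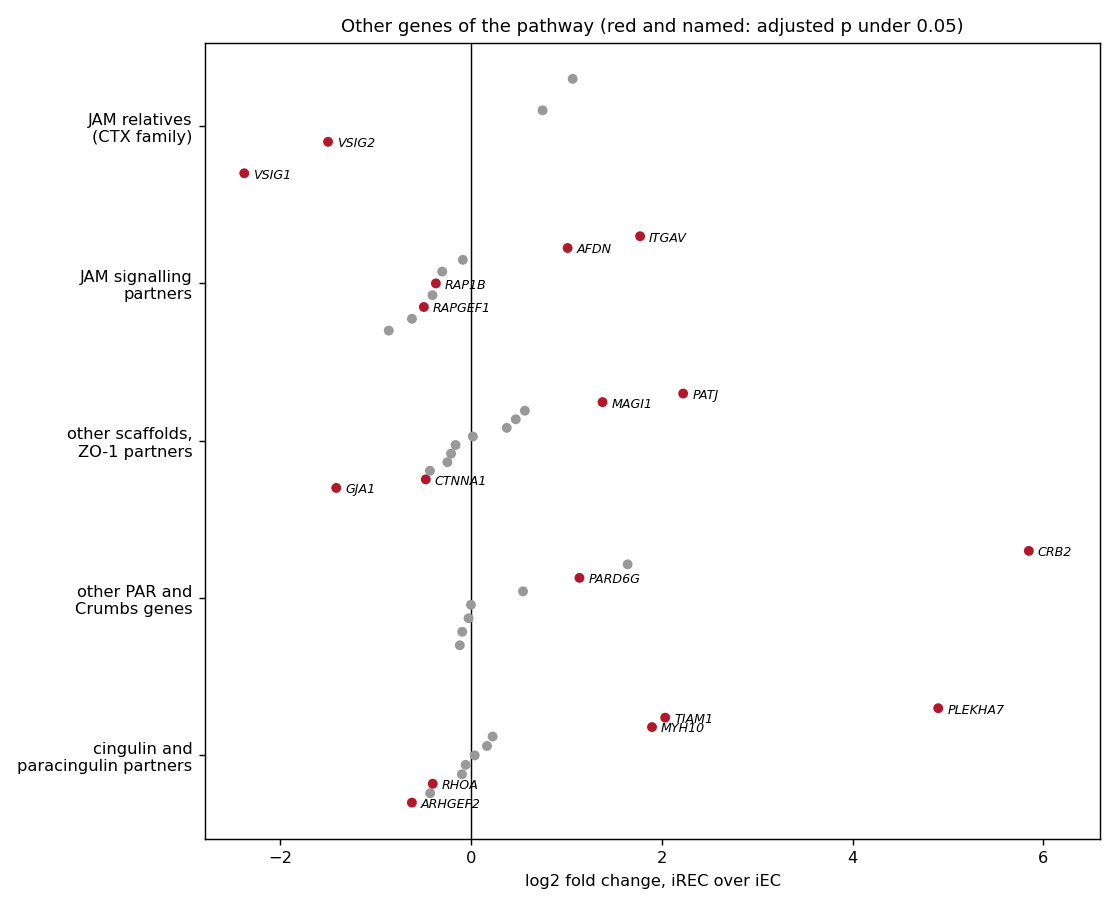
Log2 fold change, iREC over iEC, of the 44 tested genes of the 5 pathway lists, 1 point per gene, red and named where the edgeR adjusted p was under 0.05 and grey otherwise. Calls lie on both sides of 0 in 3 of the 5 lists, on the left only for the JAM relatives and on the right only for the PAR and Crumbs genes.

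Relatives of the adhesion molecules in the CTX family of immunoglobulin proteins were mostly low. Of 8, 7 were listed and 4 tested, 2 were lower and none was higher, with a median log2 fold change of -0.38. VSIG2, at 9.89 ± 3.41 CPM in iEC against 3.49 ± 2.02 CPM, fell 2.83-fold (edgeR adjusted p 0.0452), a call lost in 8 of 16 alternatives. VSIG1, chosen after its values were seen, fell from 4.99 ± 1.78 to 0.955 ± 0.251 CPM without overlap (adjusted p 0.00161). CXADR, the coxsackievirus receptor, was at 14.6 ± 3.26 CPM in iEC and 24.6 ± 18 CPM in iREC (adjusted p 0.238), with iREC F at 51.2 CPM.

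Other marker lists were read beside the members. Of 10 endothelial markers, 6 were called, 2 higher (TEK and EMCN) and 4 lower (PECAM1, CDH5, EGFL7 and ROBO4). Of 10 markers of retinal and brain barrier endothelium, 7 were tested, 4 were higher and 1 was lower, and their sum was 362 to 468 CPM in iEC and 492 to 935 CPM in iREC. SLCO1C1 and FOXQ1 had no count in any iEC sample and at most 0.785 CPM in iREC. Of 10 mural and mesenchymal markers, 9 were tested, 2 were higher and 1 was lower. The log2 fold change was above 0 for 8 of the 9, with a median of 2.24. Their sum was 233 to 488 CPM in iEC and 614 to 4458 CPM in iREC, without overlap. PDGFRB, a mural and mesenchymal marker, was at 7.77 ± 6.86 CPM in iEC against 42.4 ± 57.5 CPM in iREC, with iREC F at 127 CPM. The pan-leukocyte gene PTPRC had no count in iEC and was at 2.75, 1.21, 0.794 and 1.77 CPM in iREC C to F, and the 6 listed blood and platelet markers summed to at most 4.97 CPM. In iREC C that sum and the level of ESAM (300 CPM), which platelets also carry, were both the highest of the group. In iREC F the sum was close to that of iREC C, at 4.45 CPM, but ESAM was the lowest of the group, at 132 CPM.

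The 7 pluripotency markers summed to 40.0 to 92.1 CPM in iEC and 54.2 to 516 CPM in iREC. All 3 tested were called: LIN28A was 10.6-fold higher (edgeR adjusted p 0.0242), with 482 CPM in iREC F, ZFP42 was 8.06-fold higher (adjusted p 0.0129), and DPPA4 was lower (adjusted p 0.0166). POU5F1, which defines that state, was below the filter, at 0.372 ± 0.245 CPM in iEC against 0.653 ± 0.474 CPM. Of the 8 markers of neural retina and pigment epithelium, 7 were listed, and their sum was 1.29 to 1.95 CPM in iEC and 1.44 to 4.70 CPM in iREC. The part of mural, blood and pluripotency markers in the results on the members was not tested.

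The genes with a profile most like each called member were found by the root mean square difference of centred log2 CPM over the 8 samples, among tested protein-coding genes. For CGNL1 these were SNX18 (0.187) and ARGLU1 (0.220), against a median of 1.40 over all genes. For CGN the closest was BGN (0.435), against 2.59. For ESAM they were TDRKH (0.0794) and AFAP1L1 (0.133), against 0.687. For JAM2 they were TRPV2 (0.227) and HOXB9 (0.253), against 0.99. With 2 groups of 4 samples, this likeness follows mostly from the difference between groups.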

How the data were processed

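Poly-A RNA was sequenced from 8 samples, 4 per group, with second strands made with dUTP, per the labels' protocols. Reads were processed with fastp and HISAT2 2.0.5 on hg38, per the submitters' processing notes; the counter and its strand setting are not given in the sources used here. The authors deposited 1 table of 30386 genes with raw read counts, a normalized signal, FPKM, log2 fold changes and p-values, per the file headers. All 30386 identifiers, starts and ends matched GENCODE release 29. No gene with a total under 2 counts is listed, and such genes were not analysed here.

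From the deposited counts, edgeR 4.0.16 (filterByExpr, TMM, quasi-likelihood F-test, Benjamini-Hochberg over 15330 genes, threshold 0.05) compared iREC with iEC. Before log2 CPM, 2 counts were added as a prior. The script was checked against simulated data. Gene ratios used deposited FPKM plus 0.1 and exact permutation tests, adjusted over 6 ratios, of which 1 is not reported here. Upstream windows are from RefSeq, which matched 4 of the 9 members by symbol.

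The members and lists were chosen with earlier results of these data known. Besides the members and their ratio partners, the naming rule took up to 3 called genes per direction and pathway list whose mean reached 5 CPM in either group, PECAM1, CDH5, EPCAM, PDGFRB, PTPRC and POU5F1, and the 2 most alike genes per called member. Other genes named (VSIG1, CDH1, GRHL2, CLDN7, KRT8, LIN28A, ZFP42, DPPA4, TEK, EMCN, EGFL7, ROBO4, SLCO1C1, FOXQ1, ITGB3, RAPGEF2, RAPGEF6, MYH9, CXADR, PRKCI, PALS1, CDC42 and overlapping neighbours) were picked from their values. The comparison was repeated with each sample left out, with DESeq2 1.42.0, with voom of limma 3.58.1, with the letter as a block, with 3 other scalings (median of ratios, upper quartile, library total), without the filter and with a stricter one (1 CPM throughout a group, 50 counts on average). Ratios to CDH5, given without a test, and the motif search were added after seeing the data.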

Additional observations from a re-analysis of the deposited data

Results flagged for a closer look

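Among 90 groups of 4 values examined (members, named genes, ratios of related genes and summed markers in each group), 4 held a sample set far from the other 3. Chance alone gives about 4.5. Log2 CPM of VSIG2 was 2.32 in iEC F and 3.47 to 3.66 in the other iEC. Log2 CPM of PECAM1 was 8.95 in iREC F and 9.67 to 9.74 in the other iREC. The 11 epithelial markers summed to 4868 CPM in iREC F and to 309 to 1079 CPM in the other iREC. The 10 mural and mesenchymal markers summed to 4458 CPM in iREC F and to 614 to 1241 CPM in the other iREC. None of the 9 members held such a sample in either group.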

How the results depend on the processing

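CGN and CGNL1 kept their calls under all 16 alternatives, and JAM2 under all 15 that tested it. The log2 fold change ran from 3.75 to 5.40 for CGN, 2.51 to 2.80 for CGNL1, -2.17 to -1.65 for JAM2 and -1.11 to -0.75 for ESAM, whose call was lost without iREC D. The members called numbered 3 to 5, and calls over all genes ran from 2660 without iREC D to 4664 with DESeq2. JAM2 and PARD6A were not tested under the stricter filter. The pathway genes called numbered 11 to 18 when single samples were left out. F11R changed sign with upper quartile scaling (0.016), with the stricter filter (0.0045) and between -0.14 and 0.11 when samples were left out. PARD3 ran from -0.059 to 0.30 when samples were left out. EPCAM was at -0.25 with limma-voom, -0.19 with the replicate block and -0.62 to 0.37 with samples left out. With 1 FPKM added, CGNL1 to CGN was 0.93 and JAM2 to JAM3 was 0.42, since values near 0 are then set by the pseudocount. JAM3 per CDH5 ran from -0.097 to 0.25 with samples left out. The cause of the other sign changes was not tested.

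Deviations of same-letter samples correlated by 0.168 for C and 0.25 for F but by -0.079 for D and 0.029 for E, so these data do not show that the letters pair the samples, and the labels do not say. With the replicate block 3334 genes were called, among them 4 members. CDH5 (edgeR adjusted p 0.0803), RAP1B (0.0682), CTNNA1 (0.0503) and RHOA (0.0778) lost their calls, and PDGFRB gained one (1.85, adjusted p 0.0293). Apart from the most alike genes, no other gene of the naming rule changed its call. The most alike genes and the genes picked from their values were part of that fit, but their calls under it were not compared. Depth limits CGN in iEC and JAM2 in iREC, both at few counts.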
